A study of Mus musculus with 7 samples.

Results

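The genes described here encode 8 enzymes of cholesterol synthesis, and their signals were read in the livers of 7 female mice, each on 1 Affymetrix mouse U74Av2 array. The members were Hmgcs1, Idi1, Fdps, Fdft1, Sqle, Lss, Cyp51 and Nsdhl, chosen by symbol and taken in pathway order, and they are 8 of the 8251 genes that had at least 1 probe set naming a single gene. They were read by 13 of 10833 such probe sets, and all 8 passed the filter on mean signal that left 4481 genes to test. No gene of cholesterol uptake is among the 8. The animals were phenotypically normal mice of genotype +/+ or +/df, fed ad libitum and aged 24 to 26 months when killed. The titles, the source names and the series title give normal animals, whereas a descriptive field of the same labels gives the dwarf genotype df/df, and the titles were followed here. The titles number the animals 1, 2, 3, 4, 6, 7 and 8, and these numbers name the replicates. All 7 form 1 group, which allows levels and spreads between animals to be described but leaves no groups to compare. The labels do not say in so many words that each RNA was from its own mouse, so the spread may be partly technical.

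Cholesterol is built from acetyl-CoA. Hmgcs1 makes the compound that is reduced to mevalonate, Idi1 and Fdps convert the mevalonate product into farnesyl diphosphate, Fdft1 joins farnesyl units into squalene, Sqle and Lss turn squalene into the ring of lanosterol, and Cyp51 and Nsdhl remove methyl groups from that ring. The liver is a main site of this synthesis, and the transcription factors of the SREBP family, which are held back when membranes are rich in sterol, are known to activate the whole set. SREBP binds sterol regulatory elements and acts with the factors NF-Y and Sp1 on neighbouring sites.

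Promoters are shown because the members varied together between animals. RefSeq, in its table for build GRCm38.p6, gave a promoter of 300 bases, 250 before the start of the gene and 50 after it, for 5 of the 8 members. Promoters of Fdps, Fdft1 and Sqle are named only. Each is written 5′ to 3′ on the strand of the gene. Capitals mark matches to the sterol regulatory element TCACNCCAC and to the NF-Y motif CCAAT, searched on both strands, where CCAAT reads ATTGG on the other strand.
Hmgcs1, chr13:119690101-119690400, + strand: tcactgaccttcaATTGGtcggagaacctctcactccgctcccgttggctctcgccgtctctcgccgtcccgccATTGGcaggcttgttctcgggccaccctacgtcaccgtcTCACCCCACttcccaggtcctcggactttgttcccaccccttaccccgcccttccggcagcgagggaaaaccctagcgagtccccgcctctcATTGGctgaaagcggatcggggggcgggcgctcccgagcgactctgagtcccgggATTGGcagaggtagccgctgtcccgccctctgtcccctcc
Idi1, chr13:8885356-8885655, + strand: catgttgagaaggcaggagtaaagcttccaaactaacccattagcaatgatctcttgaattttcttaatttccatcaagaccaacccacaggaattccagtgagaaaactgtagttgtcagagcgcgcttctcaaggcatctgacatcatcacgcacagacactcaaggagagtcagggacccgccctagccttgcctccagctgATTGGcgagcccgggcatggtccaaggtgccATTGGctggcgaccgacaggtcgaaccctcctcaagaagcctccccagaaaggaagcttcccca
Lss, chr10:76531355-76531654, + strand: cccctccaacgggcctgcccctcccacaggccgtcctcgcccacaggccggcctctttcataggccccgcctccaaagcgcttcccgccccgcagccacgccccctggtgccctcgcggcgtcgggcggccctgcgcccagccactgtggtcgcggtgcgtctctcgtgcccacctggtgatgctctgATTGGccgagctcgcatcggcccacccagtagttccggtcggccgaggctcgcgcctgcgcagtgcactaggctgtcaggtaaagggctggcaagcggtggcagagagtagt
Cyp51, chr5:4104648-4104947, - strand: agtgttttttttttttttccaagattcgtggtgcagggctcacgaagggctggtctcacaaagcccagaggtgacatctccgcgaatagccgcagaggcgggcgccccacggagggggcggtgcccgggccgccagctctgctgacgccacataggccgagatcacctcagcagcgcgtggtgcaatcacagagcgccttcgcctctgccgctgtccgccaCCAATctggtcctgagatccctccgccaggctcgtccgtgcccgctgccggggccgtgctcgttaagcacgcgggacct
Nsdhl, chrX:72918271-72918570, + strand: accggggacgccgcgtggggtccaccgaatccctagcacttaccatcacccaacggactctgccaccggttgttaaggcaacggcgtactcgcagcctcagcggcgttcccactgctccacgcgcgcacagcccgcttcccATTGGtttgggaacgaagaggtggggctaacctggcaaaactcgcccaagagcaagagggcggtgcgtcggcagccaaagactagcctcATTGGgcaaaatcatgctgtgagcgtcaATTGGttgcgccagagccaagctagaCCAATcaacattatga

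Hmgcs1 held 1 match to the sterol element, TCACCCCAC, which began 137 bases before the start of the gene. The other 4 promoters held no match to this pattern, and 1.24% of all 32851 promoters of the same length held one. Sterol elements spelled otherwise were not searched for, so these 4 promoters may hold some. CCAAT or its complement was found in all 5 member promoters, against 37.4% of all promoters and 37.5% of the 4702 promoters of tested genes. Hmgcs1 and Nsdhl held 4 matches each, Idi1 held 2, and Lss and Cyp51 held 1 each. Of all promoters 11.7% held 2 or more such matches, as did 14.5% of those of tested genes. The Sp1 motif GGGCGG, not in capitals above, also matched on either strand in all 5, against 35.7% of all promoters and 61.5% of those of tested genes. None of the 3 motifs overlaps another of them in its letters in these promoters. These matches describe letters in a window and do not show binding.

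The first enzyme of the set, Hmgcs1, which makes the compound that is reduced to mevalonate (NCBI gene 208715), had a mean signal of 1845 ± 504 (SD, n = 7). Its lowest signal was 1094, on replicate 3, its median was 1746 and its highest was 2568, on replicate 7. Replicate 4 was close to the top at 2365, and the next lowest array, replicate 6, had 1572. The log2 SD was 0.41, against 0.16 expected of a gene at that level, and the limma adjusted p for more spread than expected was 0.532 over all 4481 genes. Signals are scaled intensities, and the signals of different probe sets do not rank transcript amounts. In bulk RNA, fewer cells of a type and less RNA per cell cannot be told apart.

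Idi1, the isomerase that makes the reactive isoprene unit (NCBI gene 319554), had 2814 ± 846 (SD, n = 7). Its signal was 1835 on replicate 3, 2720 at the median and 4557 on replicate 7, and the second highest array, replicate 4, had 2861. Replicate 7 thus stood above the other 6 animals, which lay between 1835 and 2861. The log2 SD of 0.40 was 0.24 without replicate 7, and the limma adjusted p was 0.532 with all 7 arrays.

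Fdps, which assembles farnesyl diphosphate for sterols and for the other isoprenoids (NCBI gene 110196), had 6284 ± 1344 (SD, n = 7). It had 3652 on replicate 3, and the other 6 animals lay between 6080 and 7819, with the highest on replicate 7. Its log2 SD was 0.36 with all arrays and 0.15 without replicate 3. The limma adjusted p was 0.532. Fdps was read by 4 probe sets. The second brightest, whose suffix _f_at marks sequence shared within a gene family, had 2720 on replicate 3 and 4050 to 5422 elsewhere, with r = 0.98 to the brightest across the 7 arrays. The other 2 were dim, with means of 78.5 and 33.0, and lay below the floor of 50.04 on 3 and 6 of the arrays. The log2 SD of Fdps was 0.28 when all 4 were averaged.

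Fdft1, the squalene synthase and the first enzyme committed to sterols (NCBI gene 14137), departed from the pattern of its neighbours. It had 2099 ± 408 (SD, n = 7), with its lowest signal on replicate 8, at 1643, and the next on replicate 3, at 1683. Its median was 2181, and its highest signal was on replicate 2, at 2749, followed by replicate 7 at 2421. Its log2 SD of 0.28 was the smallest of the 8 members, and its limma adjusted p was 0.929.

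**Figure D1:**
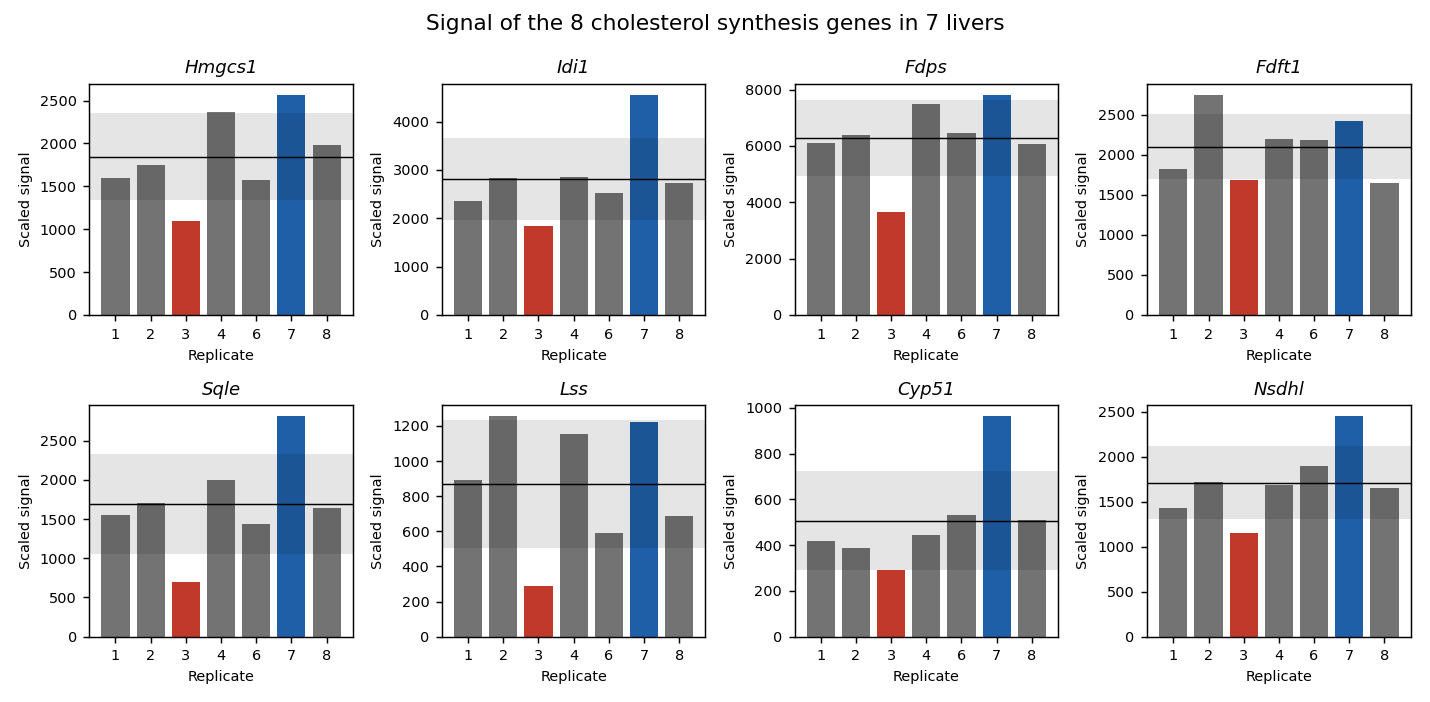
Scaled signal (linear axis from 0) of each member on each array, in pathway order from Hmgcs1 to Nsdhl. Bars are single animals, with replicate 3 in red and replicate 7 in blue, the line is the mean and the grey band is 1 SD on either side (n = 7). Replicate 3 is the lowest bar for 7 of the 8 genes and replicate 7 is the highest for 6.

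Sqle, the squalene epoxidase and a rate-limiting enzyme of the pathway (NCBI gene 20775), had 1690 ± 637 (SD, n = 7). It had 692 on replicate 3, 1644 at the median and 2809 on replicate 7, a 4.06-fold range. Its signal on replicate 3 was 41.4% of the median of the other 6 animals, and on replicate 7 it was 1.76 times that of the other 6. The log2 SD was 0.61, or 0.35 without replicate 3, against 0.16 expected. The limma adjusted p was 0.354.

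Lss, which closes the sterol ring to lanosterol (NCBI gene 16987), had the widest spread of the 8 members. It had 869 ± 366 (SD, n = 7) and a 4.36-fold range, with 288 on replicate 3, 589 on replicate 6, 686 on replicate 8, 891 on replicate 1, 1154 on replicate 4, 1223 on replicate 7 and 1255 on replicate 2. Replicate 3 had 28.2% of the median of the other 6 animals. The log2 SD of 0.77 was 4.57 times that expected at its level and was 0.46 without replicate 3. The limma adjusted p of 0.296 was the lowest among the members.

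Cyp51, the lanosterol demethylase (NCBI gene 13121), had 506 ± 216 (SD, n = 7). It had 290.5 on replicate 3, 444 at the median and 962 on replicate 7, where it was 2.24 times the median of the other 6 animals. The second highest array, replicate 6, had 533. The log2 SD was 0.53, or 0.32 without replicate 7, and the limma adjusted p was 0.499. Cyp51 was also the 1 member whose signals did not overlap between the array sets defined by the spike-in controls, with 510, 533 and 962 in the set with lower spike-in signal, against 290.5 to 444 in the other. Of all tested genes, 3.62% were separated in that direction and 3.73% in the other. With the set as a term, its log2 SD was 0.39.

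Nsdhl, a dehydrogenase that takes part in removing further methyl groups (NCBI gene 18194), had 1709 ± 404 (SD, n = 7). It had 1147 on replicate 3, 1682 at the median and 2447 on replicate 7, with replicate 6 next at 1893. Its log2 SD was 0.34, and the limma adjusted p was 0.744. With its probe sets averaged, the log2 SD of Nsdhl was 0.28. Its brightest probe set carries the suffix _g_at and 2 further probe sets read the gene. These had r = 0.90 and 0.89 to the brightest across the 7 arrays, and both were lowest on replicate 3, at 764 and 618, and highest on replicate 7, at 1618 and 941.

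The test of spread called none of the 8 members. The limma-based fit called 0% of the 4481 genes, that is 0, at an adjusted p under 0.05. At an unadjusted p under 0.05 it gave 7 of the 8 members, all except Fdft1, and 301 genes or 6.72% of all tested. Of these members, Nsdhl lay just under that limit, with an unadjusted p of 0.0499 in the limma-based test. In simulated data of this size, 200 genes had their own SD multiplied by a set factor. The adjusted test recovered 0 of them at factors of 2, 3 and 5, and 161 at 10. These factors are not the ratios to the expected SD given for the members. With such excesses missed, the 0 does not show that the members' spread was ordinary. The unadjusted count over all genes was 268 without the robust step of the prior and 245 without its trend. The median log2 SD was 0.40 over the 8 members and 0.18 over all tested genes, and all 8 members lay above the median of all tested genes. The members were chosen with earlier results of these data known, so these shares describe the members and do not test them as a list.

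**Figure D2:**
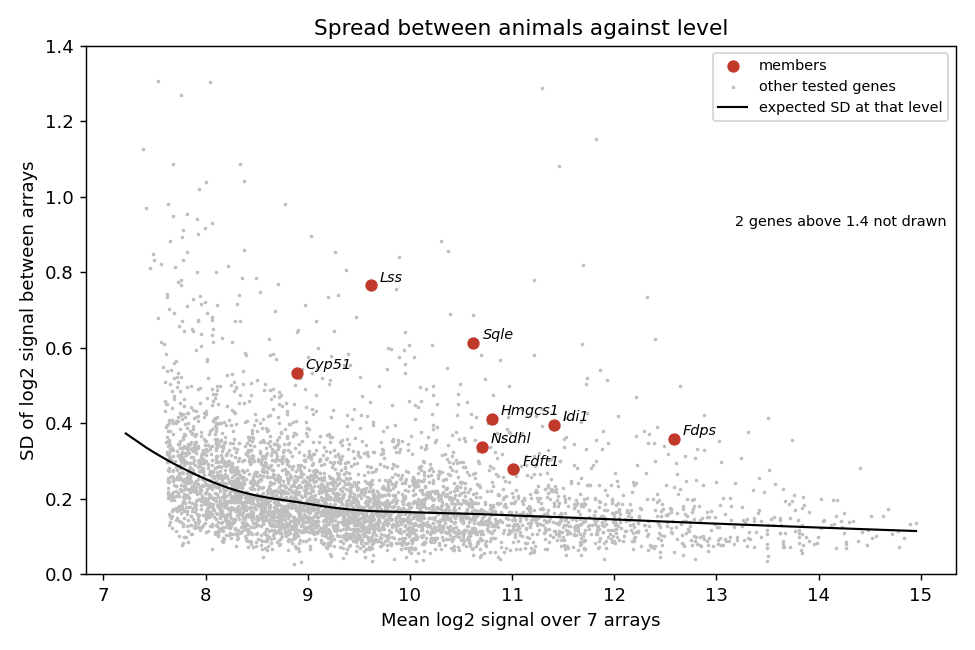
SD of the log2 signal between the 7 arrays (vertical axis) against the mean log2 signal (horizontal axis) for the 8 members (red, named) and the other tested genes (grey), with the SD expected at each level as a line. All 8 members lie above the line, from 1.79 times the expected SD for Fdft1 to 4.57 times for Lss, and 2 genes above an SD of 1.4 are not drawn.

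The extremes fell on the same arrays. Replicate 3 was lowest for 7 of the 8 members, against 14% of all tested genes, and replicate 8 was lowest for Fdft1, against 13%. Replicate 7 was highest for 6 members, against 14.6% of all tested genes, while replicate 2 was highest for Fdft1 and Lss, against 11.6%. The 6 members other than Fdft1 and Lss had both extremes in common, as did 1.9% of all tested genes. Over single probe sets with a mean above the filter, replicate 3 was lowest for 10 of 11 and replicate 7 highest for 9 of 11. The mean of the members' centred log2 signals was -0.78 on replicate 3, -0.10 on replicate 1, -0.04 on replicate 6, -0.03 on replicate 8, 0.13 on replicate 2, 0.21 on replicate 4 and 0.61 on replicate 7. The median of all tested genes on the same scale lay between -0.01 and 0.02 on every array.

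**Figure D3:**
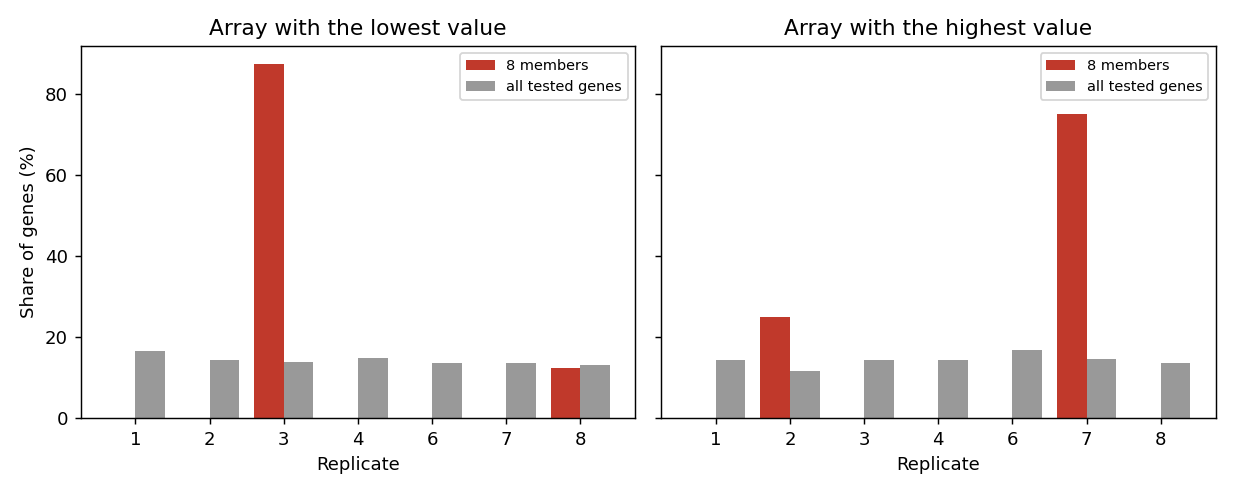
Share of genes (%) that had their lowest (left) or highest (right) signal on each of the 7 arrays, for the 8 members (red) and all 4481 tested genes (grey). The members gather on replicate 3 for the lowest value (7 of 8) and on replicate 7 for the highest (6 of 8), and all tested genes spread over the arrays.

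The size of the deviation differed along the pathway. On replicate 3 the signal was 28.2% of the median of the other 6 animals for Lss and 41.4% for Sqle. It was 56.8% for Fdps, 58.8% for Hmgcs1, 60.9% for Cyp51, 66.1% for Idi1, 67.4% for Nsdhl and 76.9% for Fdft1. On replicate 7 the order was another. Cyp51 stood at 2.24 times the median of the other animals, Sqle at 1.76 and Idi1 at 1.74, while Fdps stood at 1.25 and Fdft1 at 1.21. The enzymes that make and close the ring thus had the lowest relative signal on replicate 3, and Cyp51, which acts on the finished ring, had the highest on replicate 7. With 1 animal behind each of these values, their order has no error estimate. Sizes also differ between probe sets of 1 gene. The 3 of Nsdhl, all lowest on replicate 3 and highest on replicate 7, had 2.13-fold, 2.12-fold and 1.52-fold ranges.

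Without both of these animals the members' median spread was close to that of all tested genes. The 2 arrays held most of the members' extremes but no unusual share of those of all tested genes. Leaving them out thus narrows the members by the choice of arrays, and the closeness is no test. Leaving out replicate 3 gave a median log2 SD of 0.32 over the members and 0.18 over all tested genes, and leaving out replicate 7 gave 0.34 and 0.18. Without both, an alternative chosen after seeing the data, the medians were 0.19 and 0.18, and 5 of the 8 members lay above the median of all tested genes. In that setting Idi1 had a log2 SD of 0.12, Fdps 0.12, Nsdhl 0.15, Sqle 0.18, Cyp51 0.19, Hmgcs1 0.25 and Fdft1 0.28. Lss alone kept a log2 SD above 0.4, at 0.47, since its signals on replicates 6 and 8 lay under those on replicates 1, 2 and 4.

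Signals of the members were correlated across the 7 animals. The median Pearson r over the 28 pairs of members was 0.82, with a range of 0.37 to 0.96, and 26 pairs had r of at least 0.5, against a median of 0.00 and 13.1% of pairs over all tested genes. Fdps and Sqle had the highest value, r = 0.96 (rho = 0.75, exact permutation p = 0.00337 for r and 0.0663 for rho). Hmgcs1 and Sqle had r = 0.95 and rho = 0.96 (exact permutation p = 0.000595 and 0.00278), where 0.000198 is the smallest p that the 5040 pairings allow and a single gene at that p cannot pass the adjustment. Adjusted over the 4480 other tested genes, these p-values for r were 0.999 and 0.889. No pair passed that adjustment, and 16 of 28 had an unadjusted p under 0.05 for r. For single members, 0% of other genes passed, and the genes with an unadjusted p under 0.05 included 5 of the 7 other members for Hmgcs1 (3.79% of all other genes), 5 for Idi1 (3.48%), 5 for Fdps (4.13%) and 0 for Fdft1 (3.26%). For Sqle they included 6 (3.88%), for Lss 3 (4.49%), for Cyp51 3 (4.8%) and for Nsdhl 5 (4.46%).

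Neighbours in the pathway had the following correlations. Hmgcs1 and Idi1 had r = 0.89 and rho = 0.93 (exact permutation p = 0.00952 and 0.00675). Sqle and Lss, consecutive enzymes, had r = 0.91 and rho = 0.86 (exact permutation p = 0.00417 and 0.0238), and Cyp51 and Nsdhl had r = 0.93 and rho = 0.75 (exact permutation p = 0.00933 and 0.0663). The 2 arrays farthest from the median of the first gene named in each pair were then left out. For these 3 pairs they were replicates 3 and 7, and r was 0.75, 0.75 and 0.51. Without the same arrays, r was 0.92 for Hmgcs1 and Sqle, and 0.75 for Fdps and Sqle. Idi1 and Fdps had r = 0.83 and rho = 0.82 (exact permutation p = 0.0456 and 0.0341), with r = 0.56 without the same arrays. Fdft1 had lower values, with r = 0.60 to Fdps and 0.58 to Sqle (exact permutation p = 0.132 and 0.168). Its rho values were 0.75 and 0.64 (exact permutation p = 0.0663 and 0.139). Without replicates 3 and 7, r was 0.40 to Fdps and 0.22 to Sqle. Without replicates 3 and 8, the 2 farthest from the median of Fdft1, r to Sqle was 0.35. The adjusted p-values of all these pairs lay between 0.889 and 1. The correlations rest in large part on replicates 3 and 7. The median r was 0.64 without replicate 3, 0.42 without both, and 19 of 28 pairs then had r above 0.

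Lss and Cyp51, though separated by no other member, had r = 0.53 and rho = 0.14 (exact permutation p = 0.222 and 0.783). With the 2 arrays farthest from the median of Lss left out, which were replicates 3 and 6, r was 0.18. Their r was 0.10 without replicate 3, -0.90 without replicates 3 and 7, and 0.79 with the means of the array sets removed. Replicates 1, 2 and 4 had the higher Lss signals of the 5 remaining animals, 891 to 1255, and replicates 6 and 8 had 589 and 686, whereas Cyp51 had 389 to 444 on replicates 1, 2 and 4 and 533 and 510 on replicates 6 and 8. That split follows the array sets. Over all 28 pairs the median r was 0.88 with the set means removed.

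**Figure D4:**
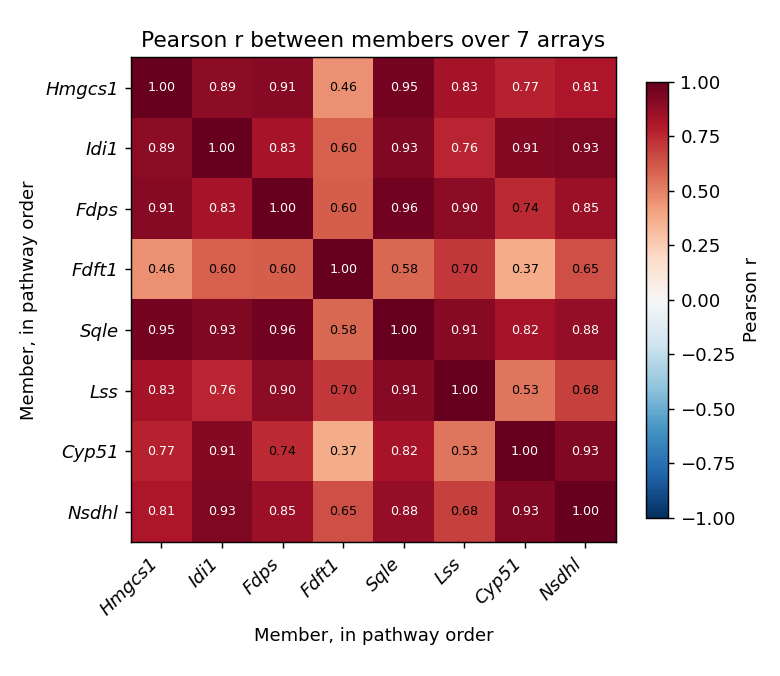
Pearson r of log2 signals between members over the 7 arrays, with both axes in pathway order. Fdft1 has the palest row, with r from 0.37 to 0.70, and the other members reach up to 0.96.

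Of the other genes of cholesterol synthesis, 9 were tested, and the limma-based test called 0 of them. Msmo1 and Dhcr7 alone had an unadjusted p under 0.05, against 6.72% of all tested genes. Upstream of Idi1, Mvk and Mvd, which phosphorylate and decarboxylate mevalonate products, were read. Mvd had 270.5 on replicate 3, 444 at the median and 622 on replicate 2, with a mean of 465 ± 118 (SD, n = 7) and a log2 SD of 0.40, or 0.25 without replicate 3. Mvk was lowest on replicate 1, at 362, and highest on replicate 7, at 749. Downstream of Lss, 7 genes were tested. Of these, 3 were lowest on replicate 3, against 14% of all tested genes, and 2 were highest on replicate 7, against 14.6%. Dhcr7, which acts at the last steps to cholesterol, had 548 on replicate 3 and 887 to 1134 on the other 6 arrays, and its log2 SD of 0.35 was 0.15 without replicate 3 (limma adjusted p = 0.738). Msmo1, a methyl sterol oxidase that works on the same methyl groups as Nsdhl, was highest on replicate 7, at 3153, but lowest on replicates 1 and 6, at 1416 and 1418, and had 1780 on replicate 3.

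Other late enzymes had different values. Tm7sf2, a sterol reductase, was lowest on replicate 7, at 1204, and had 1543 to 1854 elsewhere. Sc5d, a sterol desaturase, was lowest on replicate 6, at 1696, and highest on replicate 4, at 3221. Ebp, a sterol isomerase, had 2153 ± 184 (SD, n = 7) and was lowest on replicate 3, at 1954, but within a 1.26-fold range. Along the side branches of the pathway, Fnta, a subunit of the enzyme that attaches farnesyl groups to proteins, was the 1 tested gene, at 540 ± 99.2 (SD, n = 7), and Ggps1 and Fntb were too dim to test.

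Lists of genes that sense, take up or dispose of cholesterol had smaller median spreads than the members. The list of regulators had a median log2 SD of 0.15 over 4 tested genes. Srebf1, which encodes SREBP-1, had 5514 ± 775 (SD, n = 7), with 4297 on replicate 6, 4621 on replicate 3 and 6329 on replicate 2. Nr1h3, the liver X receptor alpha, had 1708 ± 153, and Mbtps1, the protease that starts SREBP release, had 761 ± 35.1, and Erlin1, a membrane protein of the endoplasmic reticulum, had 324 ± 35.9. Insig1, which retains SREBP there, lay below the floor on all 7 arrays. Srebf2 was not analysed here. For uptake and intracellular transport, the median log2 SD was 0.18 over 8 tested genes. None of the 8 was lowest on replicate 3, against 14% of all tested genes. Lrp1, an endocytic receptor, had 4668 ± 355 (SD, n = 7). Scarb1, the receptor for high density lipoprotein, had 3751 on replicate 3 and 3827 on replicate 7, its 2 highest values, and 2459 to 3345 on the other arrays. Npc1 and Scp2, which move sterol inside the cell, had 1816 ± 232 and 14026 ± 1896.

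The list for esterification, export and disposal had a median log2 SD of 0.25 over 7 tested genes, and the limma-based test called 0. Cyp7a1 and Cyp8b1 had an unadjusted p under 0.05, against 6.72% of all tested genes. Cyp7a1, which controls the rate at which bile acids are made, had 761 on replicate 2, 1400 at the median and 1928 on replicate 3. Replicates 8 and 7 were close behind at 1864 and 1846, and the log2 SD was 0.55 (limma adjusted p = 0.383). Cyp8b1, which directs the pathway to cholic acid, was highest on replicate 3 as well, at 4074, against 1937 to 2704 on the other 6 arrays, and its log2 SD of 0.33 was 0.19 without that replicate. Cyp7b1, a further bile acid gene named after its values were seen, was highest on replicate 7, at 881, and had 737 on replicate 3, against a median of 706. Lcat, Abca1 and Abcg1, which esterify or export cholesterol, had 9414 ± 1404, 1503 ± 161 and 690 ± 155 (SD, n = 7).

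Fatty acid synthesis genes, several of them also known SREBP targets, were also set beside the members. Replicate 3 was lowest for 7 of the 8 members and for 8 of the 10 tested genes of that list, against 14% of all tested genes. Replicate 7 was highest for 6 members and for 0 of the 10, against 14.6% of all tested genes, a share near which 0 of 10 lies. The limma-based test called 0 of the 10, and 6 had an unadjusted p under 0.05, against 6.72% of all tested genes. On replicate 7, Sqle had its highest signal, whereas Elovl6 had 1482 there, its second lowest, against 4339 to 8654 on replicates 1, 2, 4, 6 and 8 and 957 on replicate 3. Scd1 likewise had 16497 on replicate 7, close to its lowest value of 16231 on replicate 3, and 23311 to 25569 elsewhere. Fasn had 3772 on replicate 7 and 2006 on replicate 3, against 5295 to 8777 on the rest. Its log2 SD, 0.73 with all arrays, was 0.47 without replicate 3. Thrsp, a lipogenic regulator, was lowest on replicate 7, at 9143, with 9392 on replicate 3. Elovl5 and Fads1, which lengthen and desaturate fatty acids, had 12890 ± 807 and 6053 ± 690 (SD, n = 7). Fads1, Acsl5 and Me1 also had their second lowest signals on replicate 7, at 5289, 2842 and 1461. Acly, Gpam and Elovl5 were not low there. Acly had 4736, against a median of 4607, Gpam was at its median, 3735, and Elovl5 had 12521, against a median of 12705. The difference between the gene groups on replicate 7 rests on 1 animal and was not tested.

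**Figure D5:**
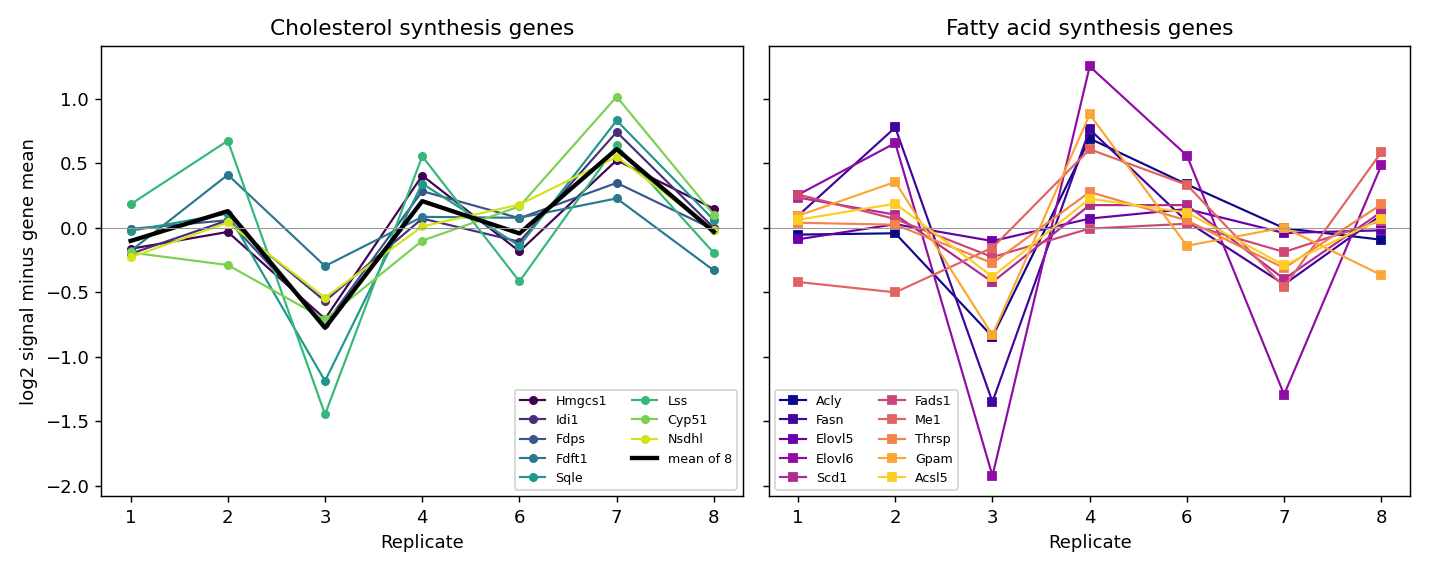
Log2 signal minus the gene's mean over the 7 arrays (vertical axis) by replicate (horizontal axis) for the 8 members, with their mean in black (left), and for the 10 tested fatty acid synthesis genes (right). Both panels dip on replicate 3, and on replicate 7 the members peak while Elovl6 and Scd1 lie low.

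Tested genes other than the members were ranked by the Pearson r of their log2 signal to the mean of the members' centred log2 signals over the 7 arrays, as a description. The 10 with the highest r, from 0.90 to 0.97, were Bcl2l2, Csnk2a2, Prom1, Kpnb1, Mvd, Spryd4, Bpgm, Sfxn2, Selenof and Pdlim1, and all 10 were lowest on replicate 3. Bcl2l2 came first, with r = 0.97, but its signals spanned a 1.61-fold range, from 300.4 on replicate 3 to 484 on replicate 7. Mvd was the 1 gene of the pathway among the 10, with r = 0.91 and a 2.30-fold range. The 3 lowest values were those of Tcn2, a cobalamin carrier, Ntpcr and Purb, with r = -0.97, -0.94 and -0.93, and these 3 were highest on replicate 3 and lowest on replicate 7. Tcn2 had 3117 on replicate 3, 2385 at the median and 2020 on replicate 7. Without replicate 3 the r of Bcl2l2 was 0.90, that of Mvd 0.73 and that of Tcn2 -0.93. Such r values are extremes picked from all tested genes over 7 arrays. The members' mean was itself lowest on replicate 3 and highest on replicate 7. The arrays on which these genes had their extremes thus follow largely from the ranking.

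Technical values of the arrays were as follows. Bacterial spike-in controls, averaged on the log2 scale over 9 probe sets, split the arrays into a set of 4 (10.64 to 10.97, replicates 1 to 4) and a set of 3 (10.20 to 10.24, replicates 6 to 8), with replicate 3 the highest of all and replicate 7 the lowest. The members' mean centred log2 signal ranged from -0.04 to 0.61 in the set of 3 and from -0.78 to 0.21 in the set of 4. For the Gapdh control the signal at the 3′ end over that at the 5′ end was 0.788 on replicate 7 and 0.804 on replicate 3, the 2 lowest of the 7, against up to 0.907 on replicate 1. The ratio for beta-actin was 1.78 on replicate 7, the highest, and 1.56 on replicate 3, within the range of 1.31 to 1.78. Pairs of arrays correlated at 0.961 to 0.975 over tested genes, and no 2 arrays were identical. The part of these values in the members' pattern was not tested.

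Markers showed liver RNA on all arrays: the summed signal of 8 of 8 hepatocyte genes ranged from 144302 on replicate 8 to 173232 on replicate 3. On replicate 3 the sums of 8 of 8 macrophage, 6 of 7 endothelial, 5 of 6 B cell and 3 of 5 red cell genes were the lowest of the 7 arrays, at 5033, 2535, 1242 and 7954, against up to 6930, 3962, 1593 and 12801 elsewhere, while the sum of 4 of 6 fat genes was the highest, at 2174, against 1439 to 1966. These sums follow their brightest genes, and the lists did not move as a whole. In the fat list Lep had 1955 on replicate 3, its highest, while Adipoq, Retn and Fabp4 had 89.8, 23.6 and 106 there, at or under their medians. In the red cell list Hba-a1 was lowest on replicate 3, at 7133, and Slc4a1 was highest, at 217. Cd68, of the macrophage list, was second highest there, at 470.1, Csf1r was at its median, 837, and Kdr, of the endothelial list, had 418, against a median of 413. On replicate 7 the sums of the macrophage genes, of 2 of 6 pancreas genes and of 5 of 6 acute phase genes were the highest, at 6930, 1471 and 59531, and that of 6 of 7 stellate cell and matrix genes was the lowest, at 6546. Dcn made up 3970 of that sum, whereas Col3a1 was second highest on replicate 7, at 199.3, and Col1a2 was above its median, at 1820. The acute phase sum was 59245 on replicate 3, next to that of replicate 7. Saa2, a serum amyloid gene of that list, had 12083 on replicate 7 and 6261 on replicate 3, against 1165 to 2237 on the other 5. In the same list Lcn2 was also highest on replicate 7, at 714. Hp and Hpx were instead highest on replicate 3, at 22218 and 21937, and Orm1 was lowest on replicate 7, at 7144. The sum of 8 of 8 skeletal muscle genes was 11233 on replicate 1 and 6203 on replicate 2, against 2216 to 2346 on the other 5, and that of 7 of 8 interferon response genes was 19201 on replicate 1 and 17788 on replicate 8, against 8326 to 11428. Acta1, of the muscle list, had 5991 and 2034 on replicates 1 and 2 and at most 100.4 elsewhere. Myl1, Atp2a1, Tnnt3 and Eno3 were also highest on replicate 1, and Pvalb was highest on replicate 2. Ckm and Myh4, of the same list, were lowest on replicate 1, at 144 and 103. Igtp, of the interferon list, had 2826 on replicate 1 and 3095 on replicate 8, against 719 to 1361. Irgm2, Iigp1 and Ifit1 also had their highest signals on replicates 1 and 8. Isg15, of the same list, was instead highest on replicate 6, at 697, and had 614 on replicate 8, against a median of 617. Ifit3 had 205.2 on replicate 8 and 204.2 on replicate 2. The sums of 4 of 6 bile duct and 4 of 7 T and NK cell genes, 2 of each below the floor on all arrays, stayed between 137 and 257 and between 223 and 424. Whether these differences have a part in the members' values was not tested.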

How the data were processed

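Total liver RNA was hybridised to 1-colour Affymetrix U74Av2 arrays, per the labels. The authors deposited linear intensities, 1 per probe set and array. Software, version and target value were not found: not given in the sources used here. Trimmed means (2% off each end) of 500.36 to 500.39 on all 7 arrays show scaling, with medians of 156.95 to 170.05. No detection calls were used. Precision is limited by there being 7 arrays.

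Of 12488 probe sets, 66 were controls, 10833 had 1 gene symbol, 396 several and 1193 none. The last 3 kinds were not named. Each array was scaled to a common trimmed mean, values were floored at 0.1 of it (50.04) and log2 was taken. The brightest probe set represented each gene, and a gene was tested if its mean reached 0.4 of that trimmed mean (200.1). Signals printed are scaled values before the floor.

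The fit was an intercept-only limma 3.58.1 model (R 4.3.3) with a robust prior that follows the level (5.61 prior degrees of freedom), a 1-sided F test for excess variance, adjusted by Benjamini-Hochberg over 4481 genes. Correlations used exact two-sided permutation over 5040 pairings, adjusted per member over all tested genes. Both steps were tested on simulated data. There the adjusted spread test recovered 80.5% of the genes whose own SD was multiplied by 10, and 0% at factors of 2, 3 and 5. Such a factor differs from the ratio to the expected SD printed for the members. The F tests treat the 7 samples as replicates, so p-values measure only the spread between these samples. Python 3.11.15, numpy 2.4.6, pandas 2.3.3 and matplotlib 3.10.9 were used.

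The members and the lists of pathway genes and of markers were chosen with earlier results of these data known. The genes named were all members, the 4 brightest and 2 most variable tested genes of each pathway list, where it had that many, the 10 most and 3 least like the members' mean, and Acta1, Igtp and Saa2, known to set single animals apart. Further list genes (Acly, Gpam, Acsl5, Me1 and Cyp7b1) were named after their values were seen. So were the marker genes Lep, Adipoq, Retn, Fabp4, Hba-a1, Slc4a1, Cd68, Csf1r, Kdr, Dcn, Col3a1 and Col1a2. The same holds for Hp, Hpx, Lcn2, Orm1, Myl1, Atp2a1, Tnnt3, Eno3, Pvalb, Ckm and Myh4, and for Irgm2, Iigp1, Ifit1, Isg15 and Ifit3. Ggps1, Fntb and Insig1 were named as too dim, and Srebf2 as not analysed. Alternatives were other scalings, floors, filters and priors, averaged probe sets, the array set as a term and leaving out each array. Genes with no probe set naming them alone were not analysed here.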

Additional observations from a re-analysis of the deposited data

Results flagged for a closer look

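Among 36 sets of 7 log2 signals examined (the members, the other named pathway genes and the members' mean), 4 had 1 array far from the rest, measured as the gap to the nearest array over the whole range. All 4 were past the 95% critical value of Dixon's test, which chance passes in about 1 in 20 sets. Fdps was low on replicate 3, at 3652 against 6080 to 7819, with a ratio of 0.67. Dhcr7 was low on the same array, at 548 against 887 to 1134, with a ratio of 0.663. Tm7sf2 was low on replicate 7, at 1204 against 1543 to 1854, with a ratio of 0.575. Lcat was low on replicate 4, at 6553 against 8960 to 10897, with a ratio of 0.615.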

How the results depend on the processing

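Over 21 alternatives, the limma-based test called 0 genes in most settings and 1, Acta1, a muscle actin, in the others: with an added offset replacing the floor, without replicates 3 and 7 (1 gene each), and in a range of 0 to 1 when each array was left out in turn. No member was called in any setting. Their adjusted p-values without the filter on dim genes were all 0.222, with 110 unadjusted calls against 301, and the cause was not tested. The adjusted correlation tests called 0 genes in every setting run, which says nothing about stability: a single gene at the smallest p that 7 arrays allow cannot pass the adjustment over all tested genes, and fewer arrays allow less. They were not run with the array set as a term. Rescaling, floors, filters and averaged probe sets left the members' median log2 SD at 0.39 to 0.41 and their median r at 0.82 to 0.84, and the array set as a term gave 0.38 and 0.88. Leaving out single arrays gave 0.32 to 0.44 for the median log2 SD and 0.64 to 0.88 for the median r, with replicate 3 giving both lowest values. Without replicates 3 and 7, which was added after seeing the data, the median log2 SD was 0.19 and the median r 0.42. In that setting Lss and Cyp51 had r = -0.90. Both arrays were picked as those of the members' extremes, which in itself lowers the members' spread, and fewer samples remain there. The cause of the changes in r was not tested. Replicate 3 stayed lowest for 7 to 8 members and replicate 7 highest for 6 to 8. No paired analysis was possible because the samples form 1 group.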
